A study of Homo sapiens with 16 samples.

Results

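The genes described here encode the steps that take glucose to lactate and a set of known targets of the hypoxia response. They were 35 of the 35606 genes in the table and were chosen by symbol from a list, with 25 genes of glycolysis and 10 hypoxia targets. The glycolysis genes comprised 2 glucose transporters, 15 enzymes, 2 enzymes that set the level of fructose 2,6-bisphosphate, and 6 genes of the lactate and pyruvate branch. RNA was sequenced from 4 human cancer cell lines. NCI-H526 and NCI-H1048 come from small cell lung cancer and belong to its tuft cell-like, POU2F3-driven form (SCLC-P). NCI-H929 and MM1.S come from multiple myeloma, a cancer of plasma cells. Each line was given AU-15330 at 1 µM or its solvent DMSO, with 2 libraries per line and arm (16 libraries). AU-15330 is a proteolysis targeting chimera (PROTAC) that removes the proteins SMARCA2 and SMARCA4, the ATPases of the mSWI/SNF chromatin remodelling complex, together with PBRM1. The sample titles give 24 h, but other descriptions of the series give shorter times, so the duration is not certain. No library had an altered gene or a second treatment, and each disease was represented by 2 established lines. NCI-H929 alone was grown with 2-mercaptoethanol, and MM1.S alone was sequenced after ribosomal RNA depletion in place of poly(A) selection. Differences between MM1.S and the other lines therefore cannot be told apart from the library method.

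Glycolysis splits glucose into pyruvate in the cytosol. Glucose enters through transporters, hexokinase traps it by phosphorylation, and phosphofructokinase makes the committing step, which fructose 2,6-bisphosphate stimulates. Lactate dehydrogenase then turns pyruvate into lactate, which leaves through monocarboxylate transporters. Pyruvate dehydrogenase kinases switch off pyruvate dehydrogenase, which uses pyruvate inside the mitochondrion. When oxygen is low, prolyl hydroxylases stop marking HIF-1α and its relative EPAS1 for destruction through VHL. The stabilised factor pairs with ARNT, binds the core letters ACGTG or GCGTG near its target genes, and raises many glycolytic genes along with VEGFA, CA9, ADM and BNIP3. MYC, which binds CACGTG, is another known activator of glycolytic genes. Cancer cells, myeloma included, often run glycolysis at a high rate with oxygen present.

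Depth was estimated at 12.0 to 14.1 M reads per library in NCI-H929, 16.8 to 32.4 in MM1.S, 31.5 to 43.0 in NCI-H526 and 33.3 to 39.2 in NCI-H1048 (M, 1e+06). Values are the deposited scaled values, near the scale of CPM, and are not corrected for gene length, so levels were compared between libraries and not between genes. The lineage markers matched the labels in the main, although some were also measured in the other disease. All 6 SCLC-P markers reached a mean of 1 in both SCLC-P lines, where their sum went from between 2443 and 2457 to between 815.5 and 834.1 in NCI-H526 and from between 958.9 and 1028 to between 102.3 and 107.5 in NCI-H1048. POU2AF2, POU2AF3 and ASCL2 were at 0 in both myeloma lines, and all 7 plasma cell markers reached 1 there. AVIL and GFI1B also reached 1 in MM1.S, where the SCLC-P markers summed to 13.64 and 14 with DMSO and to 30.61 and 32.79 with AU-15330. The plasma cell markers SDC1, XBP1 and POU2AF1 reached 1 in both SCLC-P lines. There the 7 summed to 86.24 to 202.1, against 5319 to 7955 in the myeloma lines. The 11 markers of other cells summed to 5.528 to 43.55 outside the DMSO libraries of NCI-H929. In those they summed to 191.2 and 191.4, mostly from PECAM1 (147.4 and 148.5), and with AU-15330 to 16.31 and 17.68. The T cell marker CD3E also reached a mean of 1 in both arms of NCI-H929, while VWF, CD3D and CD14 were at 0. The part of these changes in the results below was not tested. Whether replicates came from separate cultures is not given in the labels, so the p-values reflect only the spread between libraries, which may be technical.

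The promoters of 6 genes with large called changes in at least 2 lines are shown because they carry the response described below. HK2, SLC2A1, LDHA, GAPDH and PGAM1 fell in both myeloma lines, whereas PFKFB4 rose in all 4 lines. Each sequence gives the 250 bases before the first listed RefSeq start in GRCh38.p14, 5′ to 3′ on the strand of the gene. Capitals mark ACGTG or GCGTG, or the E-box letters CACGTG, on either strand. For PFKFB4, GAPDH and PGAM1 that start lies inside the gene as annotated in GENCODE, and for SLC2A1 and LDHA it lies just inside. The windows of these genes are therefore not exactly the bases before the outermost annotated start.
HK2, chr2:74833877-74834126, plus strand: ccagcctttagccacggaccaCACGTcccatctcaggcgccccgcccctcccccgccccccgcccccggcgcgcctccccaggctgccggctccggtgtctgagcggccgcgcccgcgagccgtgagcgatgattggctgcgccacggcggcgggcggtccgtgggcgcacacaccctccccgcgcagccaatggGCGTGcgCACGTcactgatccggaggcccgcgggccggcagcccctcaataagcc
SLC2A1, chr1:42958869-42959118, minus strand: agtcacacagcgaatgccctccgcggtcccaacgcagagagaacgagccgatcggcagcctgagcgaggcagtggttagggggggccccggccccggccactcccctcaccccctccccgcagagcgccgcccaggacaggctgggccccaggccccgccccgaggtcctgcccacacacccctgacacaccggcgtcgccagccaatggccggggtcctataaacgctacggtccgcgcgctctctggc
LDHA, chr11:18394313-18394562, plus strand: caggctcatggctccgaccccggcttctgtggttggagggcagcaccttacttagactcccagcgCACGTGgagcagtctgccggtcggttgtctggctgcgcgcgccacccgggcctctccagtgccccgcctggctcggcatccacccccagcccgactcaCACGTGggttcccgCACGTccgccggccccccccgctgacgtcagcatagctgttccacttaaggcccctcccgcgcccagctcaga
PFKFB4, chr3:48556804-48557053, minus strand: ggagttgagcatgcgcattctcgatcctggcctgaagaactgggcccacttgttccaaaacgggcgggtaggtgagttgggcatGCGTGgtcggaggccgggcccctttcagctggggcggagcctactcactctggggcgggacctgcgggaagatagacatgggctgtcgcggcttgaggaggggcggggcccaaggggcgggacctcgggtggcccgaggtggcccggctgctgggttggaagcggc
GAPDH, chr12:6535014-6535263, plus strand: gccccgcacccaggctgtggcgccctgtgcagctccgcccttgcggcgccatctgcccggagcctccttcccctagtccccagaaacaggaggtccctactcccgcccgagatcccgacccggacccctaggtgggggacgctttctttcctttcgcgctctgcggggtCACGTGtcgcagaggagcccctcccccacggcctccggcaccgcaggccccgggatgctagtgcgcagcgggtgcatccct
PGAM1, chr10:97427568-97427817, plus strand: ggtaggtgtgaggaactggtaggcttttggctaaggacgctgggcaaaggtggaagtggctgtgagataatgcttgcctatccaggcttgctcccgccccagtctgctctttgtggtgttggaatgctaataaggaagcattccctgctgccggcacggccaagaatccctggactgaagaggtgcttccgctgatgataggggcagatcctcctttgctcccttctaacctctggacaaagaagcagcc
HK2 held ACGTG 2 times and GCGTG 1 time, and LDHA held 2 copies of CACGTG, each of which contains ACGTG on both strands, and 1 further ACGTG. GAPDH held 1 CACGTG and PFKFB4 held 1 GCGTG. None of these letters stood in this window of SLC2A1 or PGAM1, which had fallen like HK2. The windows of PFKFB4, GAPDH and PGAM1 lie inside the annotated genes, and other starts of these genes were not searched. Of the 35 genes, 30 had a promoter in the RefSeq table, and the first entry of each was used. ACGTG stood in 14 of the 30 (46.7%) against 18.5% of all 35116 promoters of that length, with 9 of 23 glycolysis genes (39.1%) and 5 of 7 hypoxia targets (71.4%). GCGTG stood in 10 of 30 (33.3%) against 32.2% of all, and CACGTG in 5 of 30 (16.7%) against 6.34% of all. The CACGTG promoters were those of ALDOC, GAPDH, LDHA, BNIP3 and ANKRD37. These genes moved in different directions among the lines. A match describes the letters only, and factor binding was not measured in these libraries.

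AU-15330 lowered glycolysis genes broadly in the myeloma lines, lowered many of them by smaller amounts in NCI-H526, and lowered fewer in NCI-H1048. In MM1.S, 24 of the 25 glycolysis genes were tested, of which 1 rose, 21 fell and 2 did not pass, with a median log2 fold change of -1.31. In NCI-H929, 24 were tested, of which 4 rose, 18 fell and 2 did not pass, with a median of -0.97. In NCI-H526, 1 rose, 16 fell and 6 did not pass of 23 tested, with a median of -0.31. NCI-H1048 gave 2 higher, 9 lower and 13 not passing of 24 tested, with a median of -0.14. The median over all genes tested lay between -0.03 and 0.04 in the 4 lines. Testing in a line needed a mean of at least 1, and a gene was called at a limma adjusted p under 0.05. In bulk libraries, fewer cells of one kind and less RNA per cell cannot be told apart.

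The hypoxia targets had no common direction. In NCI-H929, 3 rose and 4 fell of 7 tested, with a median of -0.11. In MM1.S, 3 rose, 3 fell and 2 did not pass of 8 tested, with a median of 0.10. NCI-H526 gave 3 higher, 3 lower and 2 not passing of 8, with a median of -0.04. NCI-H1048 gave 0 higher, 3 lower and 6 not passing of 9, with a median of -0.10 (limma). NDRG1 (0.34) was the one target there with a higher value at an unadjusted p under 0.05.

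These counts stand against a large response of all genes. Of all genes tested, 76.0% were called in NCI-H929 (38.4% higher and 37.6% lower) and 74.1% in MM1.S (33.9% higher and 40.2% lower). In NCI-H526 58.8% were called (29.0% higher and 29.8% lower) and in NCI-H1048 35.1% (16.9% higher and 18.2% lower). Over all 35 members, 22 of 31 tested fell in NCI-H929 and 24 of 32 in MM1.S, with 7 and 4 higher. In NCI-H526 19 of 31 fell and 4 rose, and in NCI-H1048 12 of 33 fell and 2 rose. With each library scaled to its own total count, the median of all genes moved by 0.22 in NCI-H929 and 0.23 in MM1.S. Calls over all genes were then 6397 higher and 3798 lower in NCI-H929 (5035 and 4931 as reported) and 6362 and 4248 in MM1.S (4685 and 5568). The members gave 10 higher and 18 lower in NCI-H929 and 7 and 20 in MM1.S under that scaling. CA9 was too low to test in any line. SLC2A3 was tested in MM1.S only, and EGLN3 was tested in the SCLC-P lines only. PFKP was listed at 0 in all 4 libraries of MM1.S, ADM was too low to test in NCI-H929, and SLC16A3 and ANKRD37 were too low in NCI-H526. The heat map of fold changes shows the split between the roles and the diseases.

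**Figure D1:**
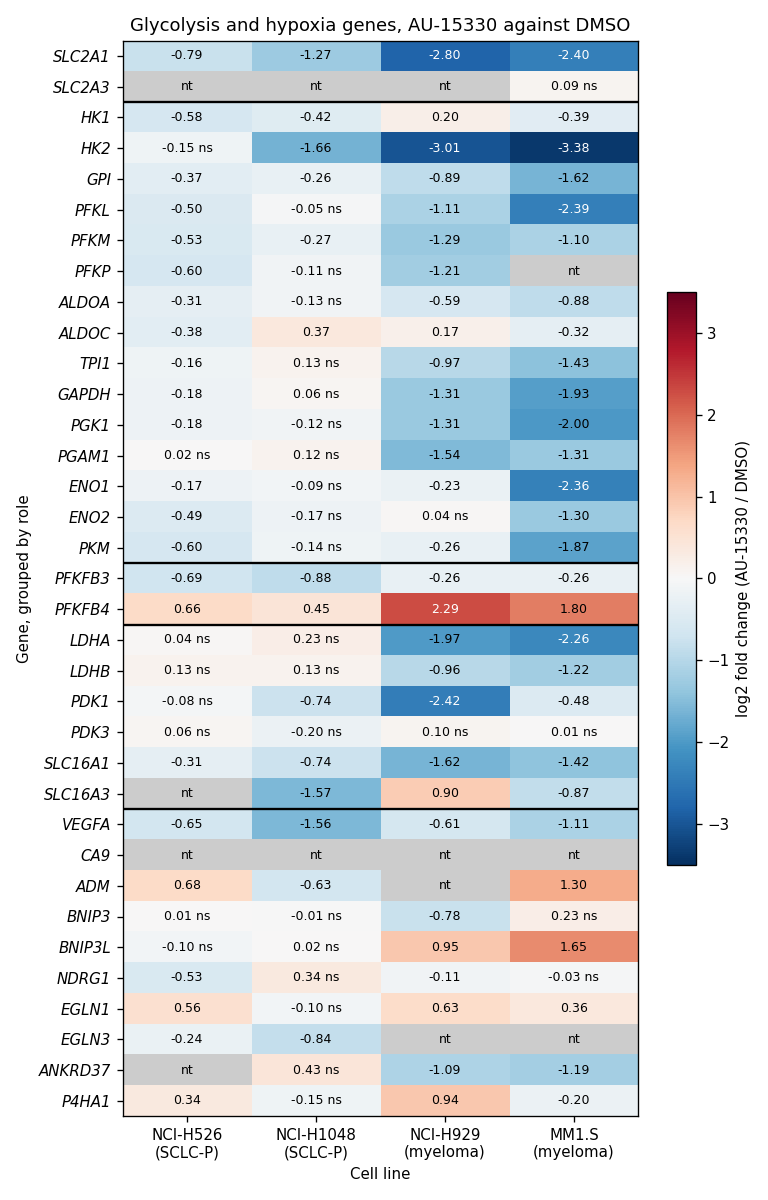
Log2 fold changes after AU-15330, relative to DMSO, for the 35 genes (vertical axis, grouped by role with black lines) in the 4 cell lines (horizontal axis), with blue for lower and red for higher; ns marks a limma adjusted p of at least 0.05 and nt a gene not tested. The glycolytic enzymes are blue in both myeloma columns apart from HK1, ALDOC and ENO2, which are not blue in NCI-H929, and PFKP, which was not tested in MM1.S, whereas PFKFB4 is red in all 4 columns and the hypoxia targets at the bottom are mixed.

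Summed over the 25 glycolysis genes, their share of the library total was 0.764% and 0.759% in the DMSO libraries of MM1.S and 0.317% and 0.317% with AU-15330. In NCI-H929 it was 0.899% and 0.925% with DMSO and 0.583% and 0.584% with AU-15330. In NCI-H526 the share was 0.943% and 0.941% with DMSO and 0.821% and 0.836% with AU-15330. The groups did not overlap in these 3 lines, and the treated libraries were lower. In NCI-H1048 the groups overlapped, with 0.902% and 0.931% against 0.944% and 0.871%. The share of the 10 hypoxia targets moved otherwise. It was 0.0551% and 0.0545% in NCI-H929 with DMSO against 0.0794% and 0.0803% with AU-15330, and 0.0453% and 0.0461% in MM1.S against 0.0837% and 0.0821%. In NCI-H1048 it was 0.047% and 0.0472% with DMSO and 0.0349% and 0.0352% with AU-15330. So the treated libraries were higher in the myeloma lines and lower in NCI-H1048, without overlap. In NCI-H526 the values were 0.0366% and 0.0377% against 0.0358% and 0.0359%. These shares were not tested, and a few abundant genes set them. The 5 most abundant genes made up 55.0% to 69.3% of the glycolysis sum in any library. In MM1.S, where 3 hypoxia targets rose and 3 fell, ADM went from a mean of 140.3 to 346.7. In NCI-H929, where 3 rose and 4 fell, P4HA1 went from 106.0 to 203.9 and BNIP3L from 93.5 to 181.3. In NCI-H1048, where 0 rose and 3 fell, VEGFA went from 137.2 to 46.3.

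**Figure D2:**
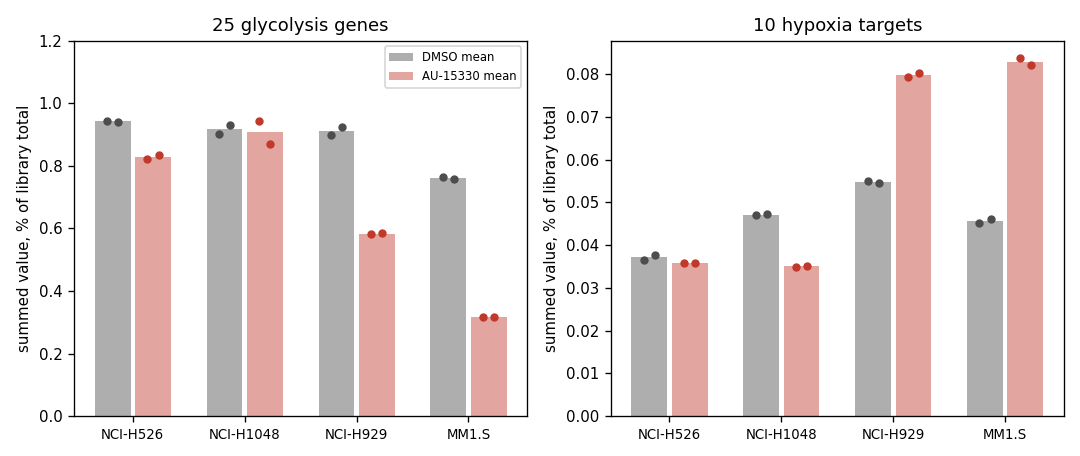
Summed scaled values as a percent of the library total (vertical axes, from 0) for the 25 glycolysis genes (left) and the 10 hypoxia targets (right) in the 4 lines, with bars for the mean of 2 libraries and points for each library (grey DMSO, red AU-15330). The glycolysis share with AU-15330 is near 0.58% in NCI-H929 and 0.317% in MM1.S, below every DMSO library, while the hypoxia share is higher with AU-15330 in the same 2 lines.

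SLC2A1 (GLUT1), the basal glucose transporter of most cells, fell in all 4 lines. It stood at 15.2 and 20.0 in NCI-H929 with DMSO and at 1.86 and 2.33 with AU-15330, a log2 fold change of -2.80 ± 0.20 (standard error, 2 libraries per arm, adjusted p = 1.1e-08, 6.95-fold lower). In MM1.S it went from 25.5 and 27.9 to 4.74 and 4.55 (-2.40 ± 0.10, adjusted p = 7.2e-09). The SCLC-P lines showed smaller falls, from 59.0 and 59.1 to 33.4 and 34.4 in NCI-H526 (-0.79 ± 0.05, adjusted p = 4.6e-07) and from 15.4 and 16.1 to 6.49 and 6.03 in NCI-H1048 (-1.27 ± 0.13, adjusted p = 2.9e-07). In each line every treated library lay below both DMSO libraries. SLC2A3 (GLUT3), a transporter with high affinity for glucose, was at 13.1 and 16 with DMSO and 15.2 and 15.9 with AU-15330 in MM1.S (0.09 ± 0.11, adjusted p = 0.45) and under 1.01 in every other library. The groups overlapped in MM1.S. Its near-identical copies, SLC2A14 among them, held 4.01% to 75% of their joint value per library, so the value for SLC2A3 is uncertain.

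The hexokinases, which phosphorylate glucose on entry, moved apart. HK2, the inducible form that many tumours carry, had the largest fall of any member in both myeloma lines. In NCI-H929 it was at 180.9 and 178.3 with DMSO and at 22.9 and 20.7 with AU-15330 (-3.01 ± 0.06, adjusted p = 7.0e-14, 8.08-fold lower). In MM1.S it was at 87.3 and 87.8 and then at 7.56 and 8.41 (-3.38 ± 0.08, adjusted p = 2.3e-10, 10.4-fold lower). These changes ranked at percentile 0.503 and 0.477 of the log2 fold changes of all genes tested in the line. HK2 in NCI-H1048 went from 31.3 and 31.4 to 9.44 and 9.75 (-1.66 ± 0.11, adjusted p = 9.1e-10). In NCI-H526 it was at 15.2 and 16 with DMSO and at 12.8 and 15.2 with AU-15330 (-0.15 ± 0.09, adjusted p = 0.18) and did not pass.

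HK1, the constitutive hexokinase, had the smaller change of the pair in 3 lines, whereas in NCI-H526 HK1 was called lower and HK2 did not pass. Its values in NCI-H929 were 38.7 and 40.8 with DMSO and 45.8 and 45.8 with AU-15330, a small rise (0.20 ± 0.07, adjusted p = 0.018) that was no longer called without DMSO replicate 1 or either treated library. HK1 fell in MM1.S from 18.6 and 18.3 to 12.9 and 15.1 (-0.39 ± 0.10, adjusted p = 0.0053), a call lost without either DMSO library. In the SCLC-P lines HK1 fell from 81.2 and 80.4 to 53.0 and 55.1 in NCI-H526 (-0.58 ± 0.04, adjusted p = 2.3e-06) and from 90.1 and 84.4 to 65.0 and 64.9 in NCI-H1048 (-0.42 ± 0.10, adjusted p = 0.0023, a call lost without DMSO replicate 1). The log2 ratio of HK2 to HK1 was 2.21 and 2.11 in NCI-H929 with DMSO and -0.98 and -1.13 with AU-15330. In MM1.S it went from 2.20 and 2.24 to -0.73 and -0.81. The ratio thus changed by -3.22 in NCI-H929 and by -2.99 in MM1.S, with no overlap of the arms. These ratios are not corrected for gene length, so only their changes between arms are compared.

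GPI, which converts glucose 6-phosphate to fructose 6-phosphate, fell in all 4 lines. In MM1.S it went from 319.4 and 310.0 to 99.2 and 104.9 (-1.62 ± 0.06, adjusted p = 1.4e-09) and in NCI-H929 from 391.6 and 404.3 to 207.2 and 220.7 (-0.89 ± 0.04, adjusted p = 1.6e-10). Its falls in NCI-H526 (-0.37) and NCI-H1048 (-0.26, adjusted p = 0.040) were smaller. The call in NCI-H1048 was lost without either DMSO library and without treated replicate 2.

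The phosphofructokinase subunits PFKL, PFKM and PFKP catalyse the committing step. PFKL was at 175.3 and 149.6 in MM1.S with DMSO and at 24.0 and 38.8 with AU-15330 (-2.39 ± 0.17, adjusted p = 2.8e-07), so its treated libraries differed from each other more than those of most members. In NCI-H929 it went from 149.0 and 156.1 to 69.4 and 70.9 (-1.11 ± 0.05, adjusted p = 1.0e-10). PFKM, the muscle-type subunit, went from 122.7 and 128.8 to 52.5 and 50.1 in NCI-H929 (-1.29 ± 0.06) and from 113.9 and 116.9 to 52.0 and 55.0 in MM1.S (-1.10 ± 0.06). The difference between these falls did not pass the test (-0.18, adjusted p = 0.079), but it passed under median-ratio, total-count and quantile scaling. PFKP, the platelet-type subunit, went from 287.6 and 302.9 to 129.2 and 125.6 in NCI-H929 (-1.21 ± 0.04) and from 231.2 and 237.5 to 152.5 and 156.2 in NCI-H526 (-0.60 ± 0.04, adjusted p = 7.0e-07). In NCI-H526 PFKL (-0.50) and PFKM (-0.53) fell alongside. In NCI-H1048 PFKM fell (-0.27, adjusted p = 0.030, a call lost without either DMSO library), and PFKL (-0.05, adjusted p = 0.74) and PFKP (-0.11, adjusted p = 0.38) did not pass.

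Below this step, ALDOA, the main aldolase, fell in NCI-H929 from 856.1 and 885.3 to 577.6 and 579.4 (-0.59 ± 0.03) and in MM1.S from 452.2 and 459.6 to 242.2 and 251.9 (-0.88 ± 0.05). It fell in NCI-H526 (-0.31) and did not pass in NCI-H1048 (-0.13, adjusted p = 0.32). ALDOC, the aldolase of brain, had its calls in 2 directions, higher in NCI-H1048 (0.37, adjusted p = 0.013) and NCI-H929 (0.17, adjusted p = 0.036) and lower in NCI-H526 (-0.38) and MM1.S (-0.32, adjusted p = 0.017). Of these only the call in NCI-H526 held when each library was left out in turn. TPI1, which interconverts the triose phosphates, went from 355.9 and 387.8 to 180.3 and 198.1 in NCI-H929 (-0.97 ± 0.05) and from 448.1 and 456.8 to 168.7 and 167.6 in MM1.S (-1.43 ± 0.05). In the SCLC-P lines TPI1 changed by -0.16 in NCI-H526 (adjusted p = 0.011, lost without either DMSO library) and by 0.13 in NCI-H1048 (adjusted p = 0.30).

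GAPDH, often used as a stable reference gene, was among the genes that fell. It was at 1377 and 1412 in MM1.S with DMSO and at 359.5 and 372.2 with AU-15330 (-1.93 ± 0.05, adjusted p = 3.2e-10, 3.81-fold lower). In NCI-H929 it went from 955.9 and 1004 to 401.6 and 386.7 (-1.31 ± 0.04, adjusted p = 1.1e-12). In NCI-H526 it was at 2007 and 2006 against 1718 and 1822 (-0.18 ± 0.06, adjusted p = 0.021), a call lost without either DMSO library and turned to 0.04 by quantile normalization. In NCI-H1048 the groups overlapped, at 2420 and 2563 against 2739 and 2464 (0.06 ± 0.10, adjusted p = 0.67).

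PGK1, the first ATP-making enzyme of the pathway, went from 723.9 and 749.3 to 294.0 and 301.3 in NCI-H929 (-1.31 ± 0.04, adjusted p = 9.0e-13) and from 495.3 and 527.6 to 127.7 and 126.5 in MM1.S (-2.0 ± 0.05, adjusted p = 3.5e-10). In NCI-H526 it was at 730.1 and 725.8 against 625.6 and 663.1 (-0.18 ± 0.05, adjusted p = 0.0079, lost without either DMSO library). In NCI-H1048 it was at 355.6 and 386.9 against 337.3 and 346.2 (-0.12 ± 0.09, adjusted p = 0.35). The treated libraries of all 4 lines thus lay below their DMSO libraries, by very different amounts. PGAM1, a phosphoglycerate mutase, went from 640.5 and 663.4 to 218.5 and 228.8 in NCI-H929 (-1.54 ± 0.04) and from 318.4 and 328.1 to 128.0 and 131.5 in MM1.S (-1.31 ± 0.05). It did not pass in the SCLC-P lines (0.02 and 0.12). PGAM1 pseudogenes held up to 7.17% of their joint value.

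The last 2 steps, enolase and pyruvate kinase, separated the myeloma lines. ENO1, the ubiquitous enolase, was at 730.2 and 739.5 in MM1.S with DMSO and at 141.2 and 143.4 with AU-15330 (-2.36 ± 0.05, adjusted p = 9.8e-11, 5.15-fold lower). In NCI-H929 it went from 1940 and 2099 only to 1707 and 1733 (-0.23 ± 0.04, adjusted p = 1.1e-04), and quantile normalization turned this to 0.16. PKM, pyruvate kinase, was at 481.3 and 483.8 in MM1.S and then at 117.1 and 148.4 (-1.87 ± 0.09, adjusted p = 1.5e-08). In NCI-H929 PKM was at 1155 and 1206 with DMSO and at 971.2 and 1004 with AU-15330 (-0.26 ± 0.04, adjusted p = 1.8e-05), with 0.07 under quantile normalization. ENO2, the neuronal enolase, went from 224.1 and 225.5 to 92.6 and 88.9 in MM1.S (-1.30 ± 0.05) and did not pass in NCI-H929 (0.04, adjusted p = 0.53). In all 3 genes the groups were far apart in MM1.S and close or overlapping in NCI-H929.

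In the SCLC-P lines PKM went from 1300 and 1345 to 851.6 and 887.2 in NCI-H526 (-0.60 ± 0.05, adjusted p = 3.7e-06), which was beside PFKP the largest fall in that line among the enzymes from hexokinase to pyruvate kinase. In NCI-H1048 PKM was at 939.2 and 913.3 against 884.5 and 793.6 (-0.14 ± 0.10, adjusted p = 0.26). ENO1 changed by -0.17 in NCI-H526 (adjusted p = 0.020, lost without either DMSO library) and by -0.09 in NCI-H1048 (adjusted p = 0.47). ENO2 fell in NCI-H526 (-0.49) and did not pass in NCI-H1048 (-0.17, adjusted p = 0.19).

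The 2 listed enzymes that make and break fructose 2,6-bisphosphate, the activator of phosphofructokinase, moved in opposite directions in every line. PFKFB2, a related gene outside the 35, was called higher in all 4 lines. Its changes were 0.65 in NCI-H526, 0.44 in NCI-H1048, 0.31 in NCI-H929 and 0.51 in MM1.S. PFKFB4 rose in all 4. It was at 3.32 and 2.86 in NCI-H929 with DMSO and at 17.2 and 16.8 with AU-15330 (2.29 ± 0.17, adjusted p = 1.7e-08, 4.90-fold higher), and at 2.15 and 1.91 in MM1.S against 8.20 and 8.33 (1.80 ± 0.14, adjusted p = 6.7e-07). In NCI-H526 it went from 6.55 and 7.69 to 10.7 and 12.4 (0.66 ± 0.11, adjusted p = 6.2e-04). In NCI-H1048 the rise was from 16.1 and 13.3 to 22.4 and 18.1 (0.45 ± 0.13, adjusted p = 0.012), a call lost without DMSO replicate 2 and without treated replicate 1. Every treated library of the 4 lines was above both DMSO libraries of its line.

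PFKFB3, the form with the higher kinase activity, fell in all 4 lines. In NCI-H1048 it went from 48.0 and 47.9 to 26.3 and 25.4 (-0.88 ± 0.10, adjusted p = 1.7e-06) and in NCI-H526 from 34.2 and 31.6 to 19.4 and 21.0 (-0.69 ± 0.07, adjusted p = 1.4e-05). Its falls in NCI-H929 (-0.26 ± 0.09, adjusted p = 0.022) and MM1.S (-0.26 ± 0.10, adjusted p = 0.029) were smaller. The call in NCI-H929 was lost without DMSO replicate 2 or treated replicate 1, and that in MM1.S without either DMSO library or treated replicate 2. The log2 ratio of PFKFB4 to PFKFB3 rose by 2.55 in NCI-H929, 2.06 in MM1.S, 1.35 in NCI-H526 and 1.33 in NCI-H1048, with no overlap of the arms in any line.

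**Figure D3:**
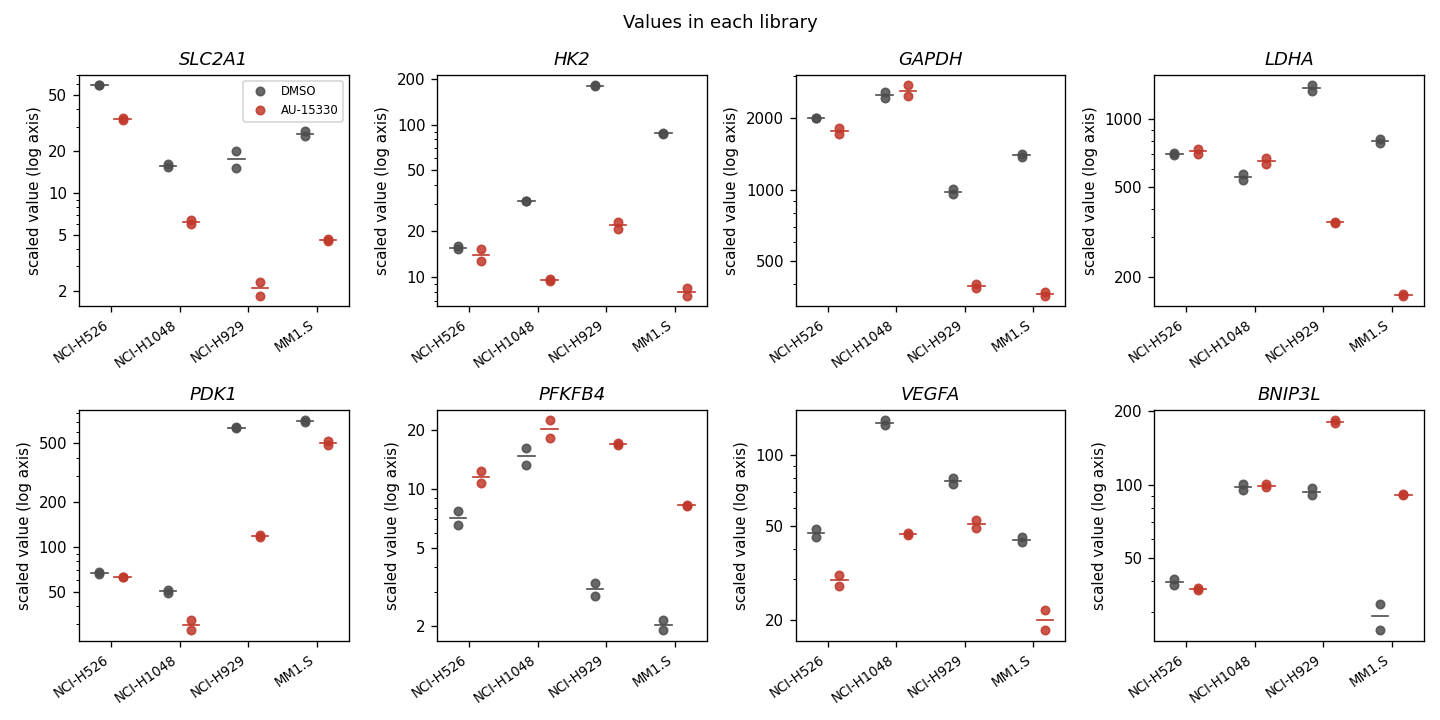
Scaled values (log axes) of 8 genes in each of the 16 libraries, by line, with grey points for DMSO, red points for AU-15330 and a short bar for the mean of 2 libraries. SLC2A1 and VEGFA are lower with AU-15330 in all 4 lines, HK2, GAPDH and LDHA fall most in the myeloma lines, PDK1 falls most in NCI-H929, and PFKFB4 is higher in all 4.

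At the branch of pyruvate, both lactate dehydrogenase genes fell in the myeloma lines and passed in neither SCLC-P line. Under total-count scaling or quantile normalization, LDHA and LDHB were called higher in NCI-H526. In one fit of all 16 libraries LDHA was called higher in NCI-H1048. LDHA, the lactate dehydrogenase subunit that favours lactate formation, was at 1334 and 1415 in NCI-H929 with DMSO and at 351.6 and 347.4 with AU-15330 (-1.97 ± 0.04, adjusted p = 2.3e-14, 3.93-fold lower). In MM1.S it went from 784.1 and 819.8 to 168.4 and 165.2 (-2.26 ± 0.05, adjusted p = 1.6e-10, 4.80-fold lower). In NCI-H526 the groups overlapped, at 696.0 and 710.0 against 700.9 and 740.7 (0.04 ± 0.05, adjusted p = 0.54). In NCI-H1048 LDHA was at 539.7 and 573.6 with DMSO and at 674.2 and 633.8 with AU-15330, higher without overlap but not past the threshold (0.23 ± 0.09, adjusted p = 0.061).

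LDHB, the subunit that favours pyruvate, went from 391.4 and 402.4 to 205.6 and 200.7 in NCI-H929 (-0.96 ± 0.04) and from 490.9 and 513.6 to 217.4 and 213.1 in MM1.S (-1.22 ± 0.05). It did not pass in NCI-H526 (0.13, adjusted p = 0.10) or NCI-H1048 (0.13, adjusted p = 0.34). As LDHA fell further, the log2 ratio of LDHA to LDHB changed by -1.01 in NCI-H929, from 1.77 and 1.81 to 0.77 and 0.79. In MM1.S it changed by -1.04, from 0.68 and 0.67 to -0.37 and -0.37. The changes in the SCLC-P lines were -0.09 and 0.11.

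PDK1, a kinase that switches off pyruvate dehydrogenase and a known HIF-1 target, was another gene on which the myeloma lines differed. In NCI-H929 it went from 641.0 and 636.5 to 121.1 and 116.8 (-2.42 ± 0.04, adjusted p = 6.5e-15, 5.35-fold lower). In MM1.S it went only from 691.1 and 717.0 to 517.0 and 489.3 (-0.48 ± 0.05, adjusted p = 9.1e-06). It fell in NCI-H1048 from 48.9 and 51.3 to 27.4 and 32.2 (-0.74 ± 0.11, adjusted p = 2.8e-05) and did not pass in NCI-H526 (-0.08, adjusted p = 0.14). PDK3, a related kinase, passed in 0 of the 4 lines (limma, and also 0 at an unadjusted p under 0.05), with changes from -0.20 to 0.10. Some alternatives gave it a call in NCI-H526, NCI-H1048, NCI-H929 or MM1.S. The log2 ratio of PDK3 to PDK1 therefore changed by 2.52 in NCI-H929 and by 0.49 in MM1.S.

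The lactate carriers also moved apart. SLC16A1 (MCT1), which carries lactate and pyruvate in either direction, fell in all 4 lines. It went from 98.4 and 103.6 to 32.2 and 32.8 in NCI-H929 (-1.62 ± 0.06), from 55.0 and 60.9 to 21.0 and 21.7 in MM1.S (-1.42 ± 0.08), and from 56.8 and 64.7 to 34.3 and 37.9 in NCI-H1048 (-0.74 ± 0.11). Its fall in NCI-H526 was -0.31 ± 0.04. SLC16A3 (MCT4), an exporter typical of glycolytic cells, rose in NCI-H929 from 17.6 and 18.9 to 36.1 and 33.0 (0.90 ± 0.10, adjusted p = 9.5e-07). It fell in MM1.S from 14.8 and 12.4 to 6.13 and 8.31 (-0.87 ± 0.15, adjusted p = 2.9e-04) and in NCI-H1048 from 2.90 and 2.50 to 0.597 and 0.548 (-1.57 ± 0.23, adjusted p = 2.7e-05), where it was low. SLC16A3 thus had opposite calls in the myeloma lines.

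**Figure D4:**
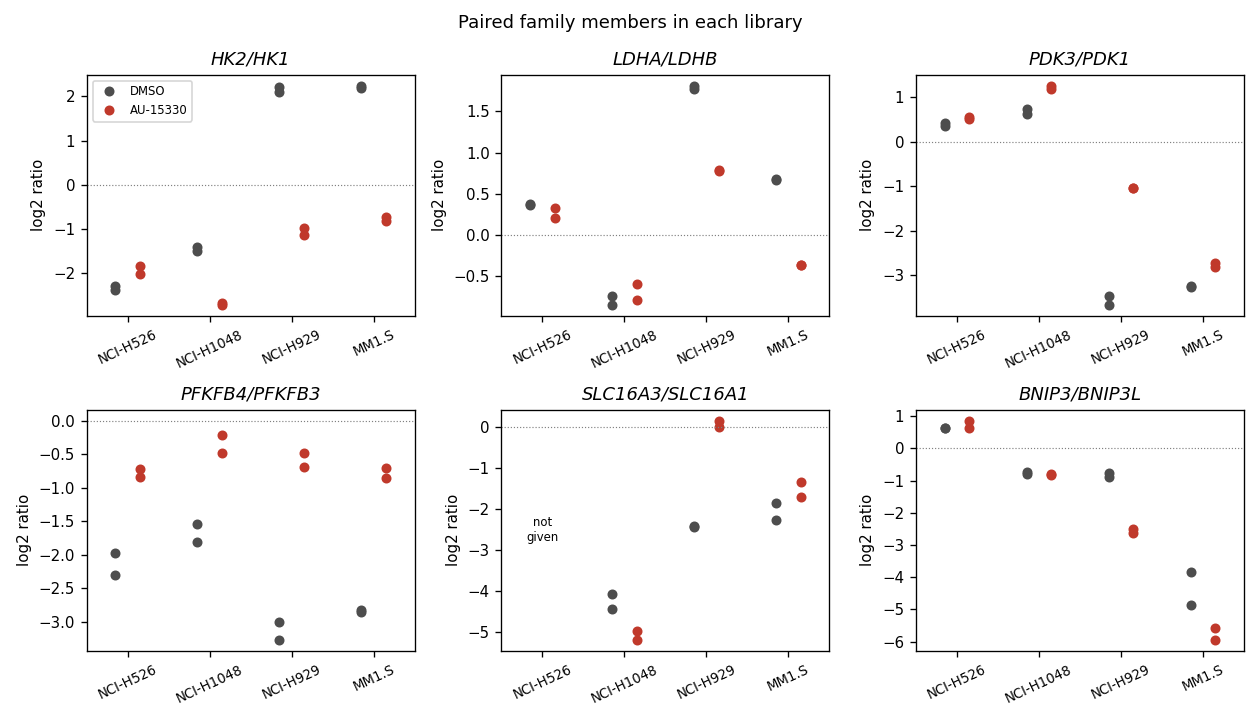
Log2 ratio of scaled values (vertical axes) for 6 pairs of related genes in each library, by line, with grey points for DMSO and red points for AU-15330; the dotted line marks a ratio of 1, and SLC16A3 was too low for a ratio in NCI-H526. The ratio of HK2 to HK1 falls from above 2 to below 0 in both myeloma lines, and the ratio of PFKFB4 to PFKFB3 is higher with AU-15330 in all 4 lines.

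Among the hypoxia targets, VEGFA, the vascular growth factor, fell in all 4 lines. It was at 140.8 and 133.6 in NCI-H1048 with DMSO and at 45.8 and 46.9 with AU-15330 (-1.56 ± 0.10, adjusted p = 2.2e-10, 2.94-fold lower). In MM1.S it went from 44.8 and 42.8 to 18.1 and 22.1 (-1.11 ± 0.10, adjusted p = 1.5e-06), in NCI-H526 from 44.9 and 48.5 to 28.0 and 31.2 (-0.65 ± 0.07, adjusted p = 1.7e-05) and in NCI-H929 from 79.9 and 75.5 to 48.9 and 52.9 (-0.61 ± 0.06, adjusted p = 9.3e-07). All treated libraries lay below the DMSO libraries of their line. ANKRD37, an ankyrin repeat protein known as a HIF-1 target, fell in MM1.S from 16.9 and 19.7 to 8.01 and 7.49 (-1.19 ± 0.11) and in NCI-H929 from 2.83 and 3.30 to 1.07 and 1.28 (-1.09 ± 0.27, adjusted p = 0.0022). It did not pass in NCI-H1048 (0.43, adjusted p = 0.19).

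BNIP3L (NIX) and BNIP3, related receptors for the removal of mitochondria by autophagy, differed. BNIP3L rose in NCI-H929 from 96.6 and 90.4 to 184.0 and 178.5 (0.95 ± 0.05, adjusted p = 4.4e-10) and in MM1.S from 25.2 and 32.3 to 91.4 and 90.2 (1.65 ± 0.10, adjusted p = 8.2e-08, 3.14-fold higher). It did not pass in NCI-H526 (-0.10, adjusted p = 0.12) or NCI-H1048 (0.02, adjusted p = 0.91). BNIP3 fell in NCI-H929 from 51.8 and 53.0 to 29.2 and 31.4 (-0.78 ± 0.07, adjusted p = 3.1e-07) and did not pass in the other lines. In MM1.S BNIP3 had a mean of only 1.09, and its 44 annotated copies held 0.926% to 80.3% of their joint value over all libraries. Its values in MM1.S are therefore uncertain.

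ADM, a vasodilator peptide, had its calls in 2 directions. It rose in MM1.S from 137.0 and 143.7 to 345.2 and 348.1 (1.30 ± 0.05, adjusted p = 4.2e-09) and, at low values, in NCI-H526 from 2.03 and 1.53 to 3.13 and 3.15 (0.68 ± 0.16, adjusted p = 0.0042). It fell in NCI-H1048 from 6.47 and 6.10 to 4.14 and 3.62 (-0.63 ± 0.16, adjusted p = 0.0041), a call lost without DMSO replicate 1. P4HA1, which hydroxylates collagen, rose in NCI-H929 from 98.4 and 113.7 to 195.6 and 212.3 (0.94 ± 0.06, adjusted p = 7.4e-09) and in NCI-H526 (0.34). It fell in MM1.S (-0.20, adjusted p = 0.013, lost without DMSO replicate 1 or treated replicate 1). Total-count scaling gave 0.03 there.

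The prolyl hydroxylases are the oxygen sensors of the pathway, and the members EGLN1 and EGLN3 are themselves induced by HIF. EGLN1 (PHD2) rose in NCI-H929 from 78.4 and 79.1 to 118.4 and 126.1 (0.63 ± 0.05, adjusted p = 7.1e-08), in MM1.S (0.36 ± 0.06) and in NCI-H526 (0.56). It did not pass in NCI-H1048 (-0.10, adjusted p = 0.47). EGLN3 (PHD3), measured in the SCLC-P lines, fell in NCI-H1048 from 39.3 and 42.4 to 23.2 and 21.8 (-0.84 ± 0.11, adjusted p = 4.7e-06) and in NCI-H526 (-0.24 ± 0.04). NDRG1, a stress-induced gene, fell in NCI-H526 (-0.53 ± 0.11) and by 0.11 on the log2 scale in NCI-H929 (adjusted p = 0.024), the latter turned to 0.11 by total-count scaling and 0.14 by quantile normalization. CA9, the carbonic anhydrase used as a hypoxia marker, was at 1.07 and 0.714 in NCI-H929 with DMSO and listed at 0 in both treated libraries, and at most 0.297 elsewhere.

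Across the lines, 28 members were tested in all 4. SLC2A1, GPI, PFKM, PFKFB3, SLC16A1 and VEGFA were called lower in each (21.4% of the 28), against 3.30% of the 11059 genes tested in all 4. Of these 6, SLC2A1, SLC16A1 and VEGFA kept all 4 calls when any single library was left out. PFKFB4 alone was called higher in each (3.57%), against 4.11% of all. Both myeloma lines called 19 of 30 members lower (63.3%), against 31.4% of all, and 3 higher (10.0%: PFKFB4, BNIP3L and EGLN1), against 25.9%. Both SCLC-P lines called 8 of 31 lower (25.8%), against 10.2%, and 1 higher (3.23%), against 9.85%.

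The size of the response was then compared between lines, as the difference of log2 fold changes in one fit. Between the diseases (the mean of the SCLC-P lines minus that of the myeloma lines), 17 of 22 glycolysis genes were higher, 3 lower and 2 not passing, with a median difference of 1.02 against 0.05 over all genes. Of 6 hypoxia targets, 4 were lower and 2 did not pass, with a median of -0.25. Of the 4, BNIP3L was called higher in both myeloma lines and passed in neither SCLC-P line. For VEGFA, EGLN1 and P4HA1 the changes of the single lines overlapped between the diseases. P4HA1 changed by 0.94 in NCI-H929, -0.20 in MM1.S, 0.34 in NCI-H526 and -0.15 in NCI-H1048. Over all 28 members 24 passed, or 17 higher and 7 lower, against 76.1% of all genes passing in either direction. HK2 (2.29 ± 0.09, adjusted p = 2.2e-12) and LDHA (2.25 ± 0.06, adjusted p = 3.9e-14) had the largest differences, each with the lower mean response in myeloma. SLC2A1 (1.57), GAPDH (1.56), PGK1 (1.51) and PGAM1 (1.5) followed. PFKFB4 (-1.49 ± 0.14) and BNIP3L (-1.35 ± 0.09) had the higher mean response in myeloma. For HK1 (-0.41) and PFKFB3 (-0.52) the mean response was lower in the SCLC-P lines. With 2 lines per disease, these p-values reflect the spread between libraries and not between lines. For HK2 and LDHA both myeloma lines fell more than either SCLC-P line. PKM differed by 0.69, but changed by -1.87 in MM1.S, -0.26 in NCI-H929, -0.60 in NCI-H526 and -0.14 in NCI-H1048. PDK1 differed by 1.04, but changed by -2.42 in NCI-H929, -0.48 in MM1.S, -0.74 in NCI-H1048 and -0.08 in NCI-H526.

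**Figure D5:**
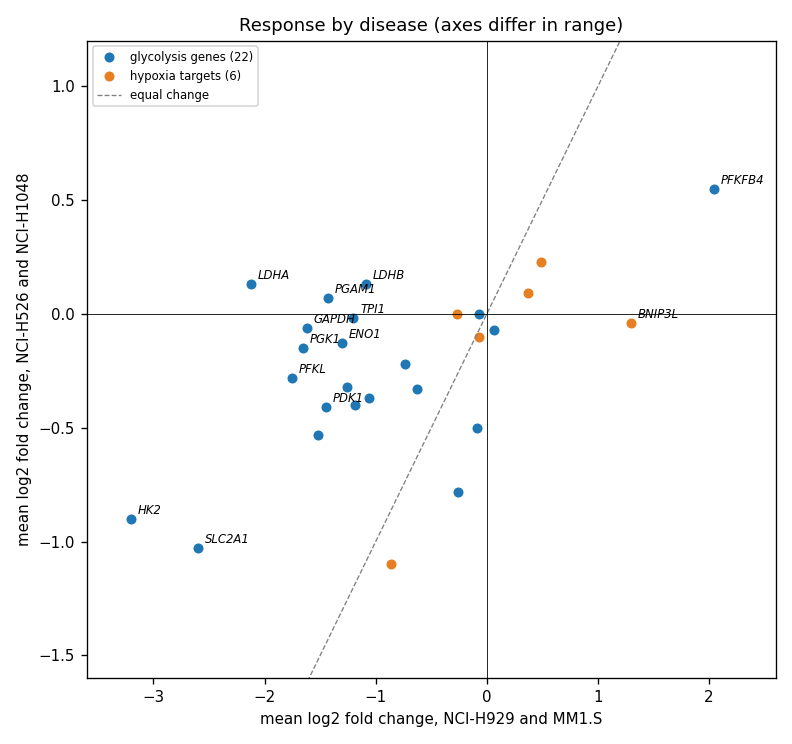
Mean log2 fold change of NCI-H526 and NCI-H1048 (vertical axis) against that of NCI-H929 and MM1.S (horizontal axis) for the 28 genes tested in all 4 lines, with blue points for glycolysis genes, orange points for hypoxia targets, a dashed line for equal change, and names where the difference was at least 1. Most glycolysis genes lie to the left of the dashed line, as with HK2 at -3.20 in myeloma and -0.90 in SCLC-P, while BNIP3L and PFKFB4 lie to its right.

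Between the myeloma lines, 22 of 30 members differed, against 48.3% of all genes, with 18 higher and 4 lower in NCI-H929. ENO1 (2.13 ± 0.06, adjusted p = 1.7e-09), PKM (1.61 ± 0.12) and PFKL (1.27) were lowered more in MM1.S, and PDK1 (-1.94 ± 0.06, adjusted p = 3.6e-09) was lowered more in NCI-H929. ENO2 (1.35 ± 0.08) fell in MM1.S and did not pass in NCI-H929. SLC16A3 (1.78 ± 0.20) and P4HA1 (1.14) rose in NCI-H929 and fell in MM1.S. Between the SCLC-P lines, 17 of 31 differed, against 28.9% of all genes, with 9 higher and 8 lower in NCI-H526. VEGFA (0.91 ± 0.11) was lowered more in NCI-H1048, and HK2 (1.5 ± 0.14, adjusted p = 1.5e-05) fell there and did not pass in NCI-H526. ADM (1.32 ± 0.22) rose in NCI-H526 and fell in NCI-H1048. ALDOC (-0.75 ± 0.11) and PKM (-0.46 ± 0.10) were lower in the NCI-H526 response. Of the 8 hypoxia targets tested in both lines, 5 were higher in NCI-H526 and 1 was lower.

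Other genes of the pathways were counted from lists. Of 37 further glycolysis and pyruvate genes, 11 fell and 7 rose of 19 tested in NCI-H929, and 9 fell and 7 rose of 21 in MM1.S. In the SCLC-P lines 4 fell and 4 rose of 18 in NCI-H526, and 4 fell and 5 rose of 19 in NCI-H1048. MPC1, a subunit of the mitochondrial pyruvate carrier, fell in NCI-H929 from 26.0 and 26.2 to 6.30 and 6.91 (-1.90 ± 0.13) and in MM1.S from 22.4 and 23.2 to 8.65 and 7.91 (-1.41 ± 0.10). PDK2, a pyruvate dehydrogenase kinase, rose in NCI-H929 (1.02) and MM1.S (1.51), opposite to PDK1. LDHD, a D-lactate dehydrogenase, rose in the same lines (2.12 and 1.37) from low values. ADPGK, an ADP-dependent glucokinase, fell in NCI-H929 (-1.22) and MM1.S (-0.90). PDHX, a pyruvate dehydrogenase subunit, rose in NCI-H1048 (1.21) and NCI-H526 (0.34) and fell in NCI-H929 (-0.27). DLAT, another such subunit, fell in MM1.S (-1.01) and NCI-H929 (-0.91). FBP1 (-1.04) fell in MM1.S, the only line where it was tested. The enolase ENO3 rose in NCI-H929 (1.17) and MM1.S (0.37) and fell in NCI-H526 (-0.35).

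Of 35 other hypoxia targets, 14 rose and 7 fell of 26 tested in NCI-H929, with a median of 0.24, and 11 rose and 9 fell of 26 in MM1.S, with a median of -0.05. In NCI-H526 8 rose and 11 fell of 28 (median -0.05), and in NCI-H1048 7 rose and 10 fell of 28 (median -0.01). DDIT4, an mTOR inhibitor, rose in NCI-H929 from 201.3 and 194.2 to 440.0 and 440.8 (1.15) and in MM1.S (1.67), but fell in NCI-H1048 from 77.9 and 75.2 to 25.1 and 23.2 (-1.64). TFRC, the transferrin receptor, fell in NCI-H929 (-2.11) and MM1.S (-1.69), and RORA, a nuclear receptor, rose in both (2.21 and 1.47). PPFIA4 had opposite calls, at 2.58 in NCI-H929 and -1.83 in MM1.S. KDM3A (1.18), ZNF395 (1.24) and STC2 (-2.48) were called in NCI-H929. KDM3A was also called higher in NCI-H526 (0.40), NCI-H1048 (0.42) and MM1.S (0.50). ZNF395 rose in MM1.S (0.54) and fell in NCI-H526 (-0.11), and STC2 fell in NCI-H1048 (-0.89). In MM1.S BHLHE40 (1.17), FUT11 (1.00), WSB1 (1.04), RAB20 (-1.28) and P4HA2 (-1.48) were called. P4HA2 rose in NCI-H929 (0.70), and each of the others had a smaller call of the same direction in another line. LOX (-1.16), the lysyl oxidase, fell in NCI-H1048, the only line where it was tested. HMOX1, haem oxygenase, rose in NCI-H526 (1.31) and NCI-H1048 (0.94) and fell in MM1.S (-0.56). Smaller calls of the genes named here are not all given. These lists did not share the one-sided count of the enzymes.

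The regulators themselves were measured in the same libraries. HIF1A, which encodes the oxygen-regulated subunit, fell in all 4 lines, with changes of -0.17 in NCI-H526, -0.36 in NCI-H1048, -0.52 in NCI-H929 and -0.38 in MM1.S. ARNT, its partner, rose in all 4, at 0.54, 0.28, 0.76 and 1.26 in the same order. HIF1AN, which inhibits HIF, rose in NCI-H929 (1.18) and MM1.S (0.76), fell in NCI-H526 (-0.14) and did not pass in NCI-H1048 (-0.09). EPAS1 fell in NCI-H1048 (-0.82) and MM1.S (-1.25) and rose in NCI-H929 (0.67). VHL rose in MM1.S (0.34) and did not pass elsewhere (-0.04 to 0.00). ARNT2 rose in NCI-H929 (1.66), fell in NCI-H1048 (-0.34) and did not pass in the other lines. CITED2 rose in all 4 lines, by 1.00 in NCI-H526, 0.59 in NCI-H1048, 0.53 in NCI-H929 and 0.50 in MM1.S. The transcript of HIF1A says little of its protein, which oxygen sets, and protein was not measured in these libraries.

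MYC stood at 527.3 and 532.2 in MM1.S with DMSO and at 15.4 and 14.9 with AU-15330 (-5.09 ± 0.06). It went from 299.8 and 316.5 to 39.4 and 38.2 in NCI-H929 (-2.97 ± 0.05) and from 189.0 and 176.8 to 41.3 and 36.4 in NCI-H1048 (-2.22 ± 0.10). In NCI-H526 it was at most 0.541 in every library and was not tested. MYC thus moved with the glycolysis genes in the myeloma lines, and fell also in NCI-H1048, where the glycolysis median was -0.14. Its part in the result was not tested. TXNIP, which restrains glucose uptake and is induced by glucose, rose in all 4 lines, from 721.1 and 725.2 to 1097 and 1112 in NCI-H929 (0.61), and by 0.61 in MM1.S, 0.28 in NCI-H1048 and 0.20 in NCI-H526. Its relative ARRDC4 also rose in all 4 lines, from 12.4 and 14.0 to 51.7 and 48.2 in NCI-H929 (1.88). The rise was 0.80 in MM1.S, 0.48 in NCI-H1048 and 0.51 in NCI-H526.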

How the data were processed

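RNA sequencing of 16 libraries was analysed. Per the labels, the authors quantified reads with kallisto against hg38 and worked with edgeR and limma. Which annotation they used and how transcripts were summed per gene is not given in the sources used here. One table was deposited by the authors under the name CPM, but the library totals ran from 0.829 to 1.19 M (M, 1e+06), so its unit was treated as a signal scaled to an effective library size. This differs from the unit assumed at the start. Between 75.8% and 81.2% of the values of up to 20 reads were whole reads to within 0.1, so a count model was not fitted. Depth was estimated as the library total over the value of 1 read, and it limits low genes most.

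Identifiers were matched to GENCODE release 44 (35444 matched, 162 did not). The two-sided limma-trend test (limma 3.58.1, R 4.3.3) was run within each line on log2(value + 0.5), which understates the change of low genes, over all genes with a mean of at least 1 in the line. P-values were adjusted by Benjamini-Hochberg over all genes tested, with a threshold of 0.05. Differences between lines were contrasts in one fit of the lines concerned. The step was tested on simulated data. Promoters came from RefSeq, and those printed have an entry there and lie outside chromosome 8.

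Members and lists were chosen with earlier results of these data known. All 35 members were accounted for. Values in every library were given for members called with an absolute log2 fold change of at least 0.58, and for GAPDH, LDHA, PKM, PGK1, SLC2A1, HK1, HK2 and VEGFA. HIF1A, EPAS1, ARNT, VHL, MYC, TXNIP and other pathway genes called with at least 1 were also named. Smaller values of members and of PFKFB2 were added after they were seen. One gene that this rule names is not reported here. Promoters shown were of called members ranked by the second largest absolute change. The alternatives were a replicate block, pseudocounts of 0.1 and 1, no filter or a mean of 5, median-ratio, total-count and quantile scaling, a joint fit of the 16 libraries, a fit without the variance trend, each library left out, and a minimum change of 1.5-fold.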

Additional observations from a re-analysis of the deposited data

Results flagged for a closer look

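The differences in response between lines that passed the test are given here as differences of log2 fold changes (limma contrasts, adjusted p under 0.05). Each was singled out because that test passed, and no cause was tested. The test rests on the spread between libraries, and the lines of a disease were not its replicates.

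For the mean of the SCLC-P lines minus that of the myeloma lines, transport and the upper steps gave 1.57 for SLC2A1, 2.29 for HK2, -0.41 for HK1, 0.94 for GPI, 1.47 for PFKL and 0.79 for PFKM. The lower steps gave 0.51 for ALDOA, 1.18 for TPI1, 1.56 for GAPDH, 1.51 for PGK1, 1.5 for PGAM1, 1.17 for ENO1, 0.30 for ENO2 and 0.69 for PKM. The enzymes of fructose 2,6-bisphosphate gave -0.52 for PFKFB3 and -1.49 for PFKFB4. At the pyruvate branch the values were 2.25 for LDHA, 1.22 for LDHB, 1.04 for PDK1 and 0.99 for SLC16A1. The hypoxia targets gave -0.24 for VEGFA, -1.35 for BNIP3L, -0.26 for EGLN1 and -0.28 for P4HA1. For VEGFA, EGLN1 and P4HA1 the changes of the single lines overlapped between the diseases. The value for ENO2 lost its call under total-count scaling and quantile normalization, and that for VEGFA without MM1.S treated replicate 2, NCI-H526 DMSO replicate 2 or NCI-H526 treated replicate 1.

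For NCI-H929 minus MM1.S, most enzymes were positive, which means a lower response in MM1.S. The upper steps gave 0.59 for HK1, 0.36 for HK2, 0.73 for GPI, 1.27 for PFKL, 0.29 for ALDOA, 0.50 for ALDOC and 0.45 for TPI1. The steps from GAPDH on gave 0.62 for GAPDH, 0.70 for PGK1, -0.23 for PGAM1, 2.13 for ENO1, 1.35 for ENO2 and 1.61 for PKM. The branch gave 0.29 for LDHA, 0.26 for LDHB, -1.94 for PDK1 and 1.78 for SLC16A3. Among the hypoxia targets the values were 0.51 for VEGFA, -1.02 for BNIP3, -0.70 for BNIP3L, 0.27 for EGLN1 and 1.14 for P4HA1. HK1, ALDOC, SLC16A3 and P4HA1 had opposite calls in the 2 lines. The value for HK2 lost its call without NCI-H929 treated replicate 1 or MM1.S DMSO replicate 2, and that for EGLN1 without NCI-H929 treated replicate 2 or MM1.S DMSO replicate 2. Those for PGAM1 and BNIP3 lost it without NCI-H929 treated replicate 1 and under quantile normalization, PGAM1 also without the variance trend. LDHB lost its call in one fit of all 16 libraries.

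For NCI-H526 minus NCI-H1048, the values were 0.48 for SLC2A1, 1.5 for HK2, -0.45 for PFKL, -0.26 for PFKM, -0.49 for PFKP, -0.75 for ALDOC, -0.30 for TPI1, -0.32 for ENO2 and -0.46 for PKM. PDK1 gave 0.66 and SLC16A1 gave 0.43. The hypoxia targets gave 0.91 for VEGFA, 1.32 for ADM, -0.87 for NDRG1, 0.66 for EGLN1, 0.61 for EGLN3 and 0.50 for P4HA1. ADM and ALDOC had opposite calls in the 2 lines. The calls for PFKM, TPI1 and ENO2 were lost without most of the single libraries, under total-count scaling and without the variance trend. PFKM also lost it under median-ratio and quantile scaling, and TPI1 with no filter and with a replicate block. The call for SLC16A1 was lost without either DMSO library of NCI-H526, its treated replicate 2 or NCI-H1048 DMSO replicate 2. That for PFKL was lost without NCI-H526 DMSO replicate 1, its treated replicate 2 or NCI-H1048 DMSO replicate 2. In one fit of all 16 libraries PFKL and SLC2A1 lost their calls.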

How the results depend on the processing

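A reversed direction of a single gene was counted only where the reported or the alternative value was called. This held for 8 of 3596 alternative values, all under scaling. Uncalled values near 0 also changed sign, as for BNIP3 in NCI-H526 (0.01 as reported, -0.09 at the lowest). Quantile normalization gave 0.04 for GAPDH in NCI-H526, 0.16 for ENO1, 0.07 for PKM and 0.14 for NDRG1 in NCI-H929, and 0.19 for NDRG1 in MM1.S. Total-count scaling gave 0.11 for NDRG1 in NCI-H929 and 0.20 for NDRG1 and 0.03 for P4HA1 in MM1.S. Total-count scaling moved the median of all genes by 0.22 in NCI-H929 and 0.23 in MM1.S, and quantile normalization by 0.14 in MM1.S. Of the 100 values of at least 0.58 in size, 2 lost a call under an alternative, ADM in NCI-H1048 and the difference for BNIP3 between the myeloma lines. Members called higher became 2 in NCI-H526 (lower 5) and 0 in NCI-H1048 with a minimum change of 1.5-fold, 0 in NCI-H1048 with no filter, 4 there with quantile normalization or one fit of all 16 libraries, 12 in NCI-H929 with quantile normalization, and 7 in MM1.S with total-count scaling. Leaving out each library in turn gave 4 to 8 members higher in NCI-H526 (8 without treated replicate 1) and 0 to 5 in NCI-H1048 (1 without DMSO replicate 1 or treated replicate 1, 0 without DMSO replicate 2, 5 without treated replicate 2). The cause was not tested. Leaving out a library leaves 1 in that arm, which is assumed to vary like the others. Replicate numbers were not shown to pair the libraries, since their deviations correlated at 0.01 in NCI-H526, 0.22 in NCI-H1048, -0.01 in NCI-H929 and -0.14 in MM1.S over 2 pairs. With a replicate block, members called higher and lower were 5 and 19 in NCI-H526, 3 and 12 in NCI-H1048, 7 and 22 in NCI-H929 and 4 and 24 in MM1.S. The block removed 1 call of a single gene, the difference for TPI1 between the SCLC-P lines, and added 3. A crossed block for MM1.S, chosen after seeing the data, also gave 4 and 24. The estimated depth of 12.0 M reads in the shallowest library limits genes near a value of 1.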

Other observations

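In the DMSO libraries the lines also differed in the level of the genes that later moved. PDK1 ranged from 636.5 to 717.0 in the myeloma lines and from 48.9 to 67.6 in the SCLC-P lines, and HK2 from 87.3 to 180.9 and from 15.2 to 31.4. With AU-15330, HK2 in the myeloma lines was between 7.56 and 22.9, and PDK1 was at 121.1 and 116.8 in NCI-H929 but at 517.0 and 489.3 in MM1.S. So HK2 ended near or below the range of the DMSO libraries of the SCLC-P lines, and PDK1 stayed above it. These levels were not tested, and MM1.S differs from the other lines in library method.

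GAPDH took 0.142% and 0.141% of the library total in MM1.S with DMSO and 0.0434% and 0.0440% with AU-15330, and 0.0819% and 0.0842% against 0.0399% and 0.0381% in NCI-H929. In the SCLC-P lines it took 0.192% and 0.195% against 0.174% and 0.178% in NCI-H526, and 0.247% and 0.258% against 0.278% and 0.248% in NCI-H1048.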
